A study of Homo sapiens with 6 samples.

Results

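The unfolded protein response genes described here were 10 genes of the endoplasmic reticulum (ER), taken by symbol from a table of 26334 genes. All 10 members were found in the table and all passed the filter on low counts. The members were HSPA5, HSP90B1, CALR, PDIA4, SDF2L1 and DNAJB9, which fold proteins in the ER lumen, ATF6, ERN1 and XBP1, which sense ER stress and carry the signal to the nucleus, and HERPUD1, which acts in the removal of misfolded proteins. RNA was sequenced from MCF10DCIS.com, a human cell line of the MCF10A series that models ductal carcinoma in situ of the breast, in 3 shLuc and 3 shWDR5 libraries. Both groups were grown in DMEM/F12 with horse serum, were infected with a pRSI vector that expresses a short hairpin RNA from a U6 promoter together with TagRFP and puromycin resistance, and were selected with 3 µg/ml of puromycin. The shLuc hairpin targets luciferase and is the control. The shWDR5 hairpin targets WDR5, a core subunit of the complexes that methylate lysine 4 of histone H3. The study's methods describe pooled WDR5 hairpins for infected cells that were transplanted, while the labels name a single shWDR5 vector. Each group is a selected population of a single line, and the labels name no ER stress agent for either.

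The ER folds secreted and membrane proteins, and the unfolded protein response adjusts its capacity. Unfolded proteins draw the chaperone BiP, the product of HSPA5, away from the stress sensors in the ER membrane. The sensor IRE1, encoded by ERN1, then splices the XBP1 mRNA, ATF6 is cut in the Golgi to release a transcription factor, and PERK, encoded by EIF2AK3, slows translation and favours ATF4. XBP1 and ATF6 in turn raise chaperones, disulfide isomerases and the degradation machinery, so the members are both components and classical readouts of this response. Counts per gene do not separate spliced from unspliced XBP1 mRNA, and cleavage of ATF6 or phosphorylation of PERK was not measured.

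The promoters of several members carry the motifs through which ATF6 and XBP1 are known to act. They are shown as a frame for asking whether members with the same motif moved together. The members are classical readouts of these factors, so matches among them are not a result of these data. Windows of 300 bases, from 250 before to 50 after each annotated start, were taken from RefSeq on GRCh38.p14, and all 10 members matched with 12 windows, PDIA4 and XBP1 having 2 starts each. The ER stress element, written as CCAAT, 9 bases of any kind and then CCACG, was searched on both strands and was found in 27 of 35116 windows (0.0769%) and in windows of 4 of the 10 members, HSPA5, HSP90B1, CALR and XBP1. Its compact form ERSE-II, written as ATTGG, 1 base of any kind and then CCACG, was found in 19 windows (0.0541%) and in those of 2 members, HERPUD1 and SDF2L1. Both elements contain CCACG, which alone lay in 38.1% of all windows and in those of 8 members, and the core ACGTG, which can overlap CCACG, lay in 21.4% of all windows and in those of 5 members. DNAJB9 and PDIA4 had CCACG and ACGTG only, and the windows of ATF6 and ERN1 held none of these letters. The stretches around the elements are printed 5′ to 3′ on the strand of the gene, with the fixed bases of the ER stress element or ERSE-II in capitals. They lie at chr9:125241351-125241449 (minus strand) for HSPA5, chr12:103930176-103930379 (plus) for HSP90B1, chr19:12938359-12938442 (plus) for CALR, chr22:28800570-28800661 (minus) for XBP1, chr16:56931985-56932075 (plus) for HERPUD1 and chr22:21642074-21642164 (plus) for SDF2L1.
HSPA5: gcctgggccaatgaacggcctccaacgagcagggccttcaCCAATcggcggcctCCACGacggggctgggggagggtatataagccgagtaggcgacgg
HSP90B1: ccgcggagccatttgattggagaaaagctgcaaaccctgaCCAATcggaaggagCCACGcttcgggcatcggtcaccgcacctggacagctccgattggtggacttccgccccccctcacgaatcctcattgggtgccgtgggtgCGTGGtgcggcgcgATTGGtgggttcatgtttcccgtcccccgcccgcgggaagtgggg
CALR: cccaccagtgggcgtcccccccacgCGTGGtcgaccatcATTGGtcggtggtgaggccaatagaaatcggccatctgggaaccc
XBP1: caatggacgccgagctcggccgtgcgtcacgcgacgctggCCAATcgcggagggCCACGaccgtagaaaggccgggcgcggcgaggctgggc
HERPUD1: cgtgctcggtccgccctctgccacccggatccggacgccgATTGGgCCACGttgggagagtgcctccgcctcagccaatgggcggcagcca
SDF2L1: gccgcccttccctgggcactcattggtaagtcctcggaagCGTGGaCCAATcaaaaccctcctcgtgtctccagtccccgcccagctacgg

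In HSPA5 the element ran from base -66 to base -48 relative to the start, and in XBP1 from base -52 to base -34. HSP90B1 held 2 copies, a forward one from base -194 to base -176 and a reverse one from base -89 to base -71. The CALR element lay farther away and in reverse, from base -225 to base -207. A match describes these letters in a window and was not a measurement of binding. Only exact matches were counted, so copies that differ by a base are not marked.

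**Figure D1:**
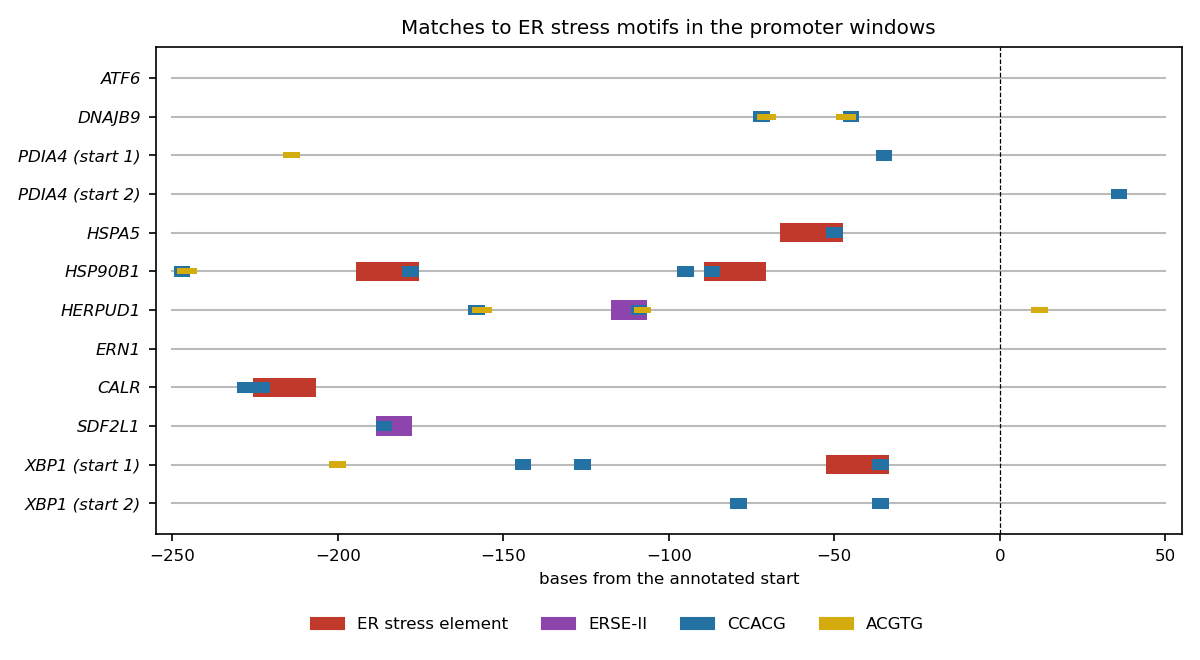
Position of each motif match (coloured blocks, both strands) in the 12 promoter windows of the 10 genes, with the x axis in bases from the annotated start (dashed line). ER stress elements are seen in HSPA5, HSP90B1, CALR and the first XBP1 start, ERSE-II in HERPUD1 and SDF2L1, and no block in ATF6 or ERN1.

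Reads assigned to genes ran from 38218108 to 48500509 per library in shLuc and from 46097058 to 57640167 in shWDR5. WDR5 itself checked the labels, with 2597, 1880 and 2072 reads in shLuc and 1083, 1384 and 941 in shWDR5, or 50.8 ± 2.09 against 22.8 ± 1.86 CPM (read counts scaled to a common library size with TMM factors, mean ± SD, n = 3). Silencing changed the transcriptome broadly: of 16117 genes tested, 26.6% were called higher and 29.9% lower in shWDR5 by edgeR's quasi-likelihood test at a Benjamini-Hochberg adjusted p below 0.05. The first principal component held 79.2% of the variance and separated the groups, and the second held 8.22% and set replicate 1 of both groups (19.1 in shLuc and 15.1 in shWDR5) apart from the other libraries (-13.0 to -3.27). Of 8 breast epithelial markers, KRT5, KRT14, KRT17 and TP63 were called higher, EPCAM and CDH1 were called lower, and KRT8 and KRT18 were not called. Of 6 markers of leukocytes, endothelium and fibroblasts, CD3E and LUM had no read, PTPRC, VWF and DCN had at most 12 reads in a library, and PECAM1 had 181 to 312.

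Against this broad change the members moved little and in both directions. Of the 10 members, 2 were called higher (HERPUD1 and CALR), 3 were called lower (HSP90B1, PDIA4 and ATF6) and 5 were not called. The shares of 20% and 30% stood near the 26.6% and 29.9% of all genes tested. The 3 shWDR5 libraries lay above all 3 shLuc libraries for 2 members and below them for 4, where 29.9% and 32.4% of all genes tested did so. The log2 fold change (shWDR5 minus shLuc) ran from -0.27 for HSP90B1 to 0.30 for DNAJB9 with a median of 0.04, where the median of all genes tested was -0.01. In absolute size the median was 0.19 for the members and 0.31 for all genes tested. Among the 7805 genes whose mean CPM was in both groups at least the 15.9 of the lowest member, the median absolute change was 0.25, and 41.3% changed more than any member did. No member reached an absolute log2 fold change of 0.6, the limit used by the study in calling genes. The labels do not say that replicates came from separate infections, so the p-values measure the spread between these libraries.

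**Figure D2:**
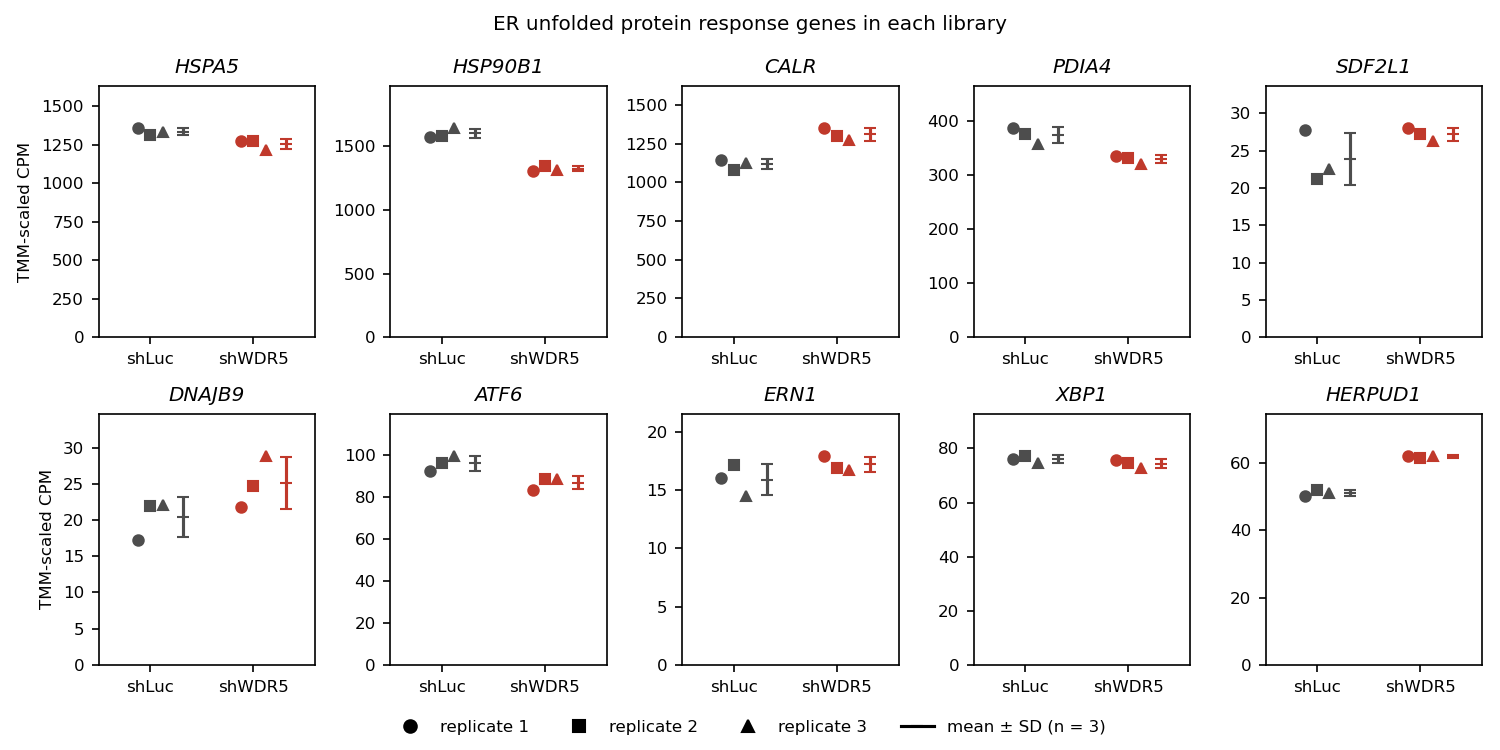
TMM-scaled CPM (y axes, from 0) of the 10 genes in each library, shLuc in grey and shWDR5 in red, with marker shapes for replicates 1 to 3 and bars for mean ± SD (n = 3). HSP90B1, PDIA4 and ATF6 are lower and CALR and HERPUD1 higher in every shWDR5 library, while XBP1 and ERN1 overlap.

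Among the folding genes, the ER members of the HSP70 and HSP90 families behaved unequally. HSPA5 encodes BiP, the HSP70 chaperone of the ER that also holds the stress sensors inactive (hg19 chromosome 9, 127997127 to 128003666, minus strand). It stood at 1360, 1313 and 1333 CPM in shLuc and at 1272, 1273 and 1215 CPM in shWDR5. The 3 shWDR5 libraries were the lowest, but the difference was not called (log2 fold change -0.09, SE 0.05, edgeR adjusted p = 0.134), and the 95% interval of the shWDR5 to shLuc ratio ran from 0.871 to 1.01. HSP90B1 encodes GRP94, the HSP90 chaperone of the ER, which folds integrins and Toll-like receptors among other clients (hg19 chromosome 12, 104324112 to 104341708, plus strand). It stood at 1574, 1586 and 1646 CPM in shLuc and at 1309, 1349 and 1318 CPM in shWDR5. HSP90B1 fell to 0.828 times the control level (log2 fold change -0.27, SE 0.05, edgeR adjusted p = 0.000700), and its groups did not overlap. The related pseudogene HSP90B2P had at most 17 reads in a library. MIR3652 shares 131 of its exon bases and had no read of its own.

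Calreticulin went the other way. CALR encodes a calcium-binding lectin chaperone that retains glycoproteins until they are folded (hg19 chromosome 19, 13049414 to 13055304, plus strand). It stood at 1144, 1080 and 1123 CPM in shLuc and at 1352, 1300 and 1275 CPM in shWDR5, without overlap. CALR rose to 1.17 times the control level (log2 fold change 0.23, SE 0.05, edgeR adjusted p = 0.00278). PDIA4 encodes ERp72, a disulfide isomerase that forms and rearranges disulfide bonds (hg19 chromosome 7, 148700154 to 148725782, minus strand). Its 388, 377 and 358 CPM in shLuc were above the 335, 333 and 321 CPM in shWDR5, and PDIA4 fell to 0.880 times the control (log2 fold change -0.18, SE 0.05, edgeR adjusted p = 0.0112). Without shLuc replicate 1, the highest of its libraries, the call was lost at an adjusted p of 0.0524 and a log2 fold change of -0.14, and with upper quartile scaling it was lost at 0.0517.

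The co-chaperones SDF2L1 and DNAJB9 were the least abundant of the folding genes and overlapped between the groups. SDF2L1 encodes a lumenal protein that works with the J-domain chaperone ERdj3 to keep proteins soluble (hg19 chromosome 22, 21996542 to 21998588, plus strand). It stood at 27.8, 21.2 and 22.6 CPM in shLuc and at 28.1, 27.3 and 26.3 CPM in shWDR5. The first shLuc library lay inside the shWDR5 range, and the difference was not called (log2 fold change 0.19, SE 0.10, edgeR adjusted p = 0.12). Single libraries moved this value both ways: without shLuc replicate 1 SDF2L1 was called higher (log2 fold change 0.33, adjusted p = 0.00319), and without shLuc replicate 2 the change was 0.10 (adjusted p = 0.426). DNAJB9 encodes ERdj4, a J-domain partner of BiP that helps to keep IRE1 inactive and is a target of XBP1 (hg19 chromosome 7, 108210189 to 108215294, plus strand). It stood at 17.3, 21.9 and 22.1 CPM in shLuc and at 21.8, 24.7 and 28.9 CPM in shWDR5. Replicate 1 was the lowest library of each group, and the shWDR5 library of that number overlapped the control range. DNAJB9 had the highest log2 fold change of the members but missed the threshold narrowly (0.30, SE 0.12, edgeR adjusted p = 0.0514). Single libraries moved this value both ways, to 0.39 (adjusted p = 0.0149) without shWDR5 replicate 1, to 0.21 (0.136) without shLuc replicate 1 and to 0.19 (0.194) without shWDR5 replicate 3. Its exons share 72 bases (2.84%) with THAP5 on the opposite strand, and the strand setting of the counting is not given in the sources used here.

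The sensors and the transcription factor had log2 fold changes from -0.15 to 0.12, and 1 of the 3 was called. Of all genes tested, 56.5% were called in either direction. ATF6 encodes the membrane-bound precursor of a transcription factor for ER chaperones (hg19 chromosome 1, 161736034 to 161933860, plus strand). It stood at 92.3, 96.0 and 99.5 CPM in shLuc and at 83.1, 88.5 and 88.2 CPM in shWDR5, and the groups did not overlap. ATF6 fell to 0.903 times the control (log2 fold change -0.15, SE 0.06, edgeR adjusted p = 0.0449). This call lay close to the threshold and was lost without each of the 6 libraries in turn, at adjusted p-values from 0.0548 to 0.141, with the direction kept. ERN1 encodes IRE1, the kinase and ribonuclease that splices XBP1 (hg19 chromosome 17, 62120390 to 62207502, minus strand). It stood at 16, 17.1 and 14.5 CPM in shLuc and at 17.9, 16.9 and 16.7 CPM in shWDR5. The groups overlapped, and the log2 fold change was 0.12 (SE 0.08, edgeR adjusted p = 0.232, 95% interval of the ratio 0.961 to 1.22). XBP1 encodes the transcription factor of the IRE1 branch (hg19 chromosome 22, 29190548 to 29196560, minus strand). Its 76.1, 77.3 and 74.4 CPM in shLuc and 75.8, 74.6 and 72.6 CPM in shWDR5 overlapped. The log2 fold change of XBP1 was -0.03 (SE 0.05, edgeR adjusted p = 0.647), and the 95% interval of the ratio ran from 0.904 to 1.06.

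HERPUD1 encodes a membrane protein that organises the HRD1 ubiquitin ligase for ER-associated degradation (hg19 chromosome 16, 56966002 to 56977793, plus strand). It stood at 50.1, 51.9 and 51.0 CPM in shLuc and at 62.0, 61.5 and 62.2 CPM in shWDR5. The groups did not overlap, and HERPUD1 rose to 1.21 times the control level (log2 fold change 0.28, SE 0.05, edgeR adjusted p = 0.00110). Like HSP90B1 and CALR, it kept its call without each of the 6 libraries in turn.

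**Figure D3:**
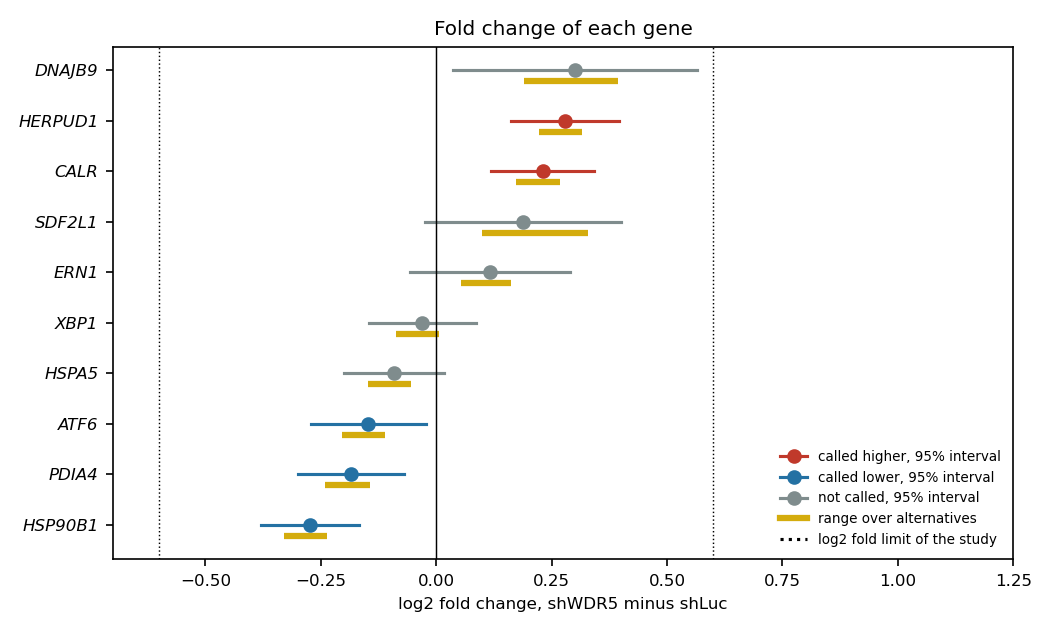
Log2 fold change (x axis, shWDR5 minus shLuc) of each gene with its 95% interval, coloured by call, above a yellow bar for its range over the alternative settings, with dotted lines at an absolute value of 0.6. All intervals lie inside the dotted lines, and the order runs from HSP90B1 at -0.27 to DNAJB9 at 0.30.

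Of the 4 members with an ER stress element, CALR rose, HSP90B1 fell, and HSPA5 and XBP1 were not called. Of the 2 with ERSE-II, HERPUD1 rose (log2 fold change 0.28) and SDF2L1 had a positive change that was not called (0.19). The 14 tested genes with ERSE-II held 3 called higher, 6 lower and 5 not called, beside 26.6% and 29.9% of all genes tested. Among all 16 tested genes with an ER stress element in a window, 5 were called higher, 4 lower and 7 were not called, a mix near the 26.6% higher and 29.9% lower of all genes tested. Of the 12 that were no members, 4 were called higher, among them PDIA6 (log2 fold change 0.41) and CRELD2 (0.17), and 3 were called lower, among them ERO1B (-0.82).

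Levels as TPM, which are reads per exon length scaled to the same total in each library, spanned over 2 orders of magnitude among the members. In shLuc, CALR (1487 TPM) and HSP90B1 (1426 TPM) came first and their ranges over the 3 libraries overlapped, followed by HSPA5 (857 TPM), PDIA4 (323 TPM) and XBP1 (106 TPM). SDF2L1 (69.4 TPM) and HERPUD1 (67.7 TPM) overlapped, and ATF6 (32.4 TPM), DNAJB9 (20.5 TPM) and ERN1 (10.1 TPM) were the lowest. In shWDR5, CALR (1657 TPM) stood apart from HSP90B1 (1121 TPM) without overlap. HERPUD1 (78.0 TPM) came before SDF2L1 (75.4 TPM), and ATF6 (27.8 TPM) and DNAJB9 (24.0 TPM) overlapped. Between the groups, XBP1 did not overlap in TPM (104 to 110 in shLuc, 98.3 to 99.6 in shWDR5), while its TMM-scaled CPM did. The summed level of the 10 members was 4343, 4407 and 4450 TPM in shLuc and 4095, 4168 and 4119 TPM in shWDR5, from 0.434% to 0.445% of the total against 0.410% to 0.417%. CALR, HSP90B1 and HSPA5 make up most of this sum, which was lower in every shWDR5 library and does not describe the rarer members. TPM carries no TMM factor. These factors ran from 1.015 to 1.026 in shLuc and from 0.971 to 0.986 in shWDR5, so the size of this difference depends on scaling.

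Ratios within a library, which do not depend on the scaling between libraries, describe the balance of the members. Where the genes of a pair separated in opposite directions, their ratio must separate as well. That holds for CALR to HSP90B1 and for ATF6 to ATF6B, whose separation is therefore no further result. The TPM ratio of CALR to HSP90B1 was 1.09, 1.02 and 1.02 in shLuc and 1.55, 1.44 and 1.45 in shWDR5, without overlap. The ratio of HSPA5 to HSP90B1 was 0.601 ± 0.0197 in shLuc and 0.682 ± 0.0178 in shWDR5 (SD, n = 3), again without overlap. The ratio of CALR to CANX, which encodes its membrane-bound counterpart calnexin, overlapped between the groups, at 2.79 ± 0.291 and 3.21 ± 0.346. SDF2L1 was set against its paralogue SDF2, and the ratio was 1.62, 1.40 and 1.37 in shLuc and 3.90, 3.79 and 3.93 in shWDR5. That shift lay mostly in SDF2, which fell to 0.432 times the control (log2 fold change -1.21, SE 0.07, edgeR adjusted p = 5.92e-07). The ratio of ATF6 to its paralogue ATF6B went from 0.386 ± 0.0274 to 0.308 ± 0.0291 without overlap, while that of HERPUD1 to HERPUD2 overlapped at 3.43 ± 0.0497 and 3.49 ± 0.0567. With 3 libraries a group, an exact permutation test of a ratio cannot go below p = 0.1, and none was run.

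**Figure D4:**
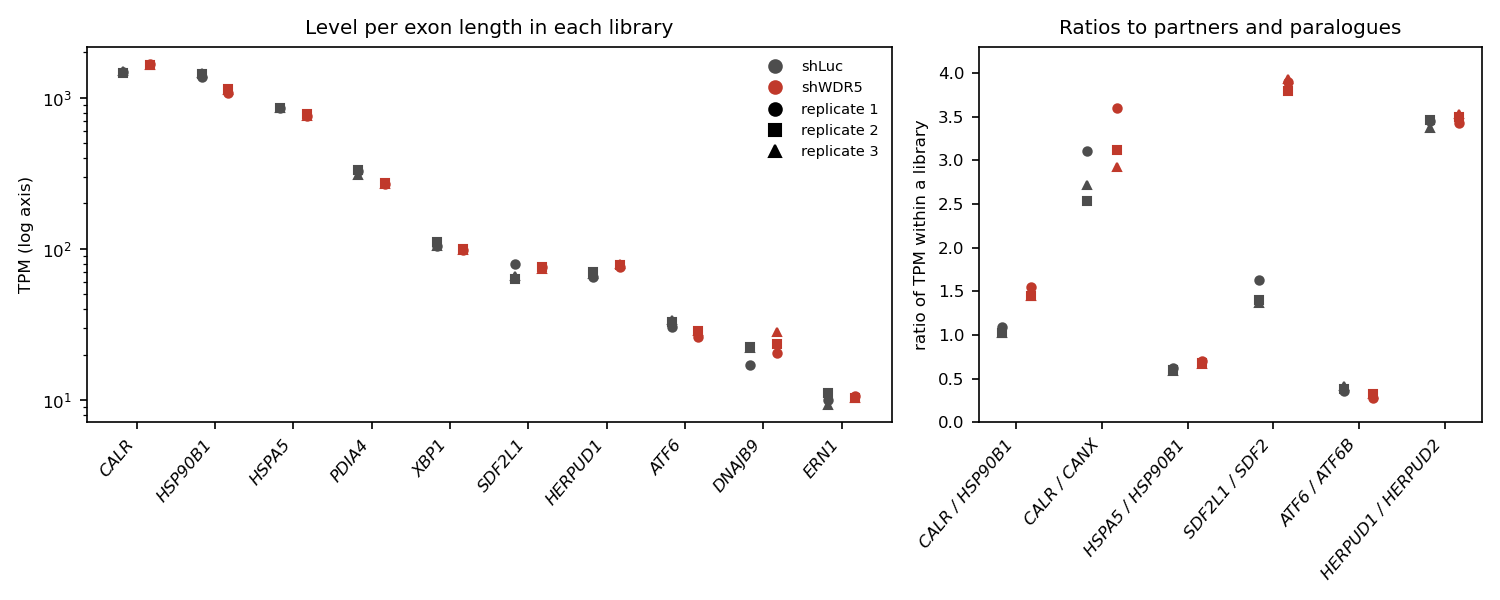
Left, TPM of each gene in each library (log axis), shLuc in grey and shWDR5 in red; right, TPM ratios within a library (axis from 0), with marker shapes for replicates 1 to 3. The ratio of SDF2L1 to SDF2 moves from 1.46 to 3.88 on average and that of CALR to HSP90B1 from 1.04 to 1.48, while that of HERPUD1 to HERPUD2 overlaps.

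The wider pathway was read from 75 further genes, of which 74 were tested (DERL3 had too few reads). Of these, 28 (37.8%) were called higher, 18 (24.3%) lower and 28 were not called, beside 26.6% and 29.9% of all genes tested, with a median log2 fold change of 0.09. Translocation into the ER had 7 of 13 genes called higher and 1 lower, N-glycosylation 5 of 11 higher and 2 lower, and ER-associated degradation 8 of 18 higher and 6 lower. These counts describe the lists, which were tested neither against each other nor against other genes.

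Of the other sensors and their activators, 2 of 6 rose and 1 fell (all genes tested: 26.6% and 29.9%), and 3 were not called. The largest change was in MBTPS2, the site-2 protease that cuts ATF6 in the Golgi, which fell from 51.8 ± 4.62 to 29.7 ± 1.85 CPM (0.574 times the control, edgeR adjusted p = 1.52e-05). MBTPS1, the site-1 protease that cuts first, was not called at 139 ± 2.53 and 148 ± 3.24 CPM (adjusted p = 0.157). The ATF6 relatives ATF6B and CREB3L2 rose to 1.14 and 1.17 times the control (edgeR adjusted p = 0.0274 and 0.0109), the former losing its call without shLuc replicate 2 (adjusted p = 0.0582), without shLuc replicate 3 (0.0768) and without shWDR5 replicate 1 (0.0968), and with library totals alone (0.0904). CREB3 (log2 fold change 0.15, adjusted p = 0.0626) and EIF2AK3 (0.14, adjusted p = 0.151) were not called.

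Of the other ER chaperones, 2 of 10 were called higher and 3 lower, near the 26.6% and 29.9% of all genes tested. PPIB, a prolyl isomerase of the ER, rose from 245 ± 14.2 to 297 ± 3.09 CPM (edgeR adjusted p = 0.00158), and CRELD2, an ER stress-inducible protein, from 33.6 ± 1.55 to 37.8 ± 1.43 CPM (adjusted p = 0.0401). The CRELD2 call was lost without each of 5 libraries, shLuc replicate 1 being the exception, at adjusted p-values from 0.0518 to 0.122. It was also lost in edgeR with library totals alone (adjusted p = 0.135) and with no filter on low counts (0.0735). MANF, a secreted ER stress protein that binds BiP, fell from 122 ± 8.19 to 80.1 ± 2.14 CPM (0.657 times the control, adjusted p = 1.78e-05). The largest fall was that of SDF2, given above.

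Oxidative folding had 2 of 10 genes higher and 3 lower, near the 26.6% and 29.9% of all genes tested. The disulfide isomerases P4HB and PDIA6 rose to 1.27 and 1.33 times the control (edgeR adjusted p = 0.000224 and 0.000138), while their family member PDIA4 fell. ERO1B, an oxidase that recharges disulfide isomerases, fell from 14.6 ± 1.66 to 8.29 ± 1.09 CPM (adjusted p = 0.000143), and TXNDC11, a thioredoxin-domain protein, fell to 0.822 times the control (adjusted p = 0.00182).

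In ER-associated degradation, where HERPUD1 acts, UBE2G2, a ubiquitin-conjugating enzyme, rose to 1.51 times the control (edgeR adjusted p = 5.07e-06). VIMP, also named SELENOS, which recruits the ATPase VCP to the ER membrane, rose to 1.33 times (adjusted p = 0.000292). EDEM1, which marks misfolded glycoproteins by trimming mannose, fell from 228 ± 6.78 to 153 ± 5.63 CPM (adjusted p = 8.56e-06), and FAF2, another VCP-recruiting factor, fell to 0.763 times the control (adjusted p = 0.000108).

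Among translocation genes, the channel subunit SEC61G rose from 59.6 ± 5.38 to 100.4 ± 10.8 CPM (edgeR adjusted p = 4.83e-05) and SSR4, of the translocon-associated complex, rose to 1.29 times the control (adjusted p = 0.000853). SPCS2, of the signal peptidase, fell to 0.888 times the control (edgeR adjusted p = 0.0164). The SPCS2 call was lost without shLuc replicate 1 (adjusted p = 0.0547) and without shWDR5 replicate 2 (0.0713). It was also lost with upper quartile factors (0.0652) and with DESeq2, where the adjusted p rounds to 0.05. In N-glycosylation, DAD1, a subunit of the oligosaccharyltransferase, and MOGS, the first glucosidase to trim the glycan, rose to 1.49 and 1.33 times the control (adjusted p = 1.40e-05 and 0.000400). UGGT1, the folding sensor that re-glucosylates glycans for calreticulin, and GANAB, a glucosidase subunit, fell to 0.781 and 0.819 times (adjusted p = 0.000213 and 0.000931).

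The PERK branch had 2 of 6 genes higher and 2 lower, beside 26.6% and 29.9% of all genes tested. ATF4, its transcription factor, stood at 523 ± 9.11 CPM in shLuc and 431 ± 14.2 in shWDR5 and fell to 0.824 times the control (edgeR adjusted p = 0.000755). TRIB3, a pseudokinase induced by ATF4, fell to 0.699 times (adjusted p = 0.000476). CHAC1, an enzyme that degrades glutathione and is known as an ATF4 target, rose from 2.62 ± 0.178 to 13.9 ± 1.14 CPM, or 5.31 times the control (adjusted p = 9.60e-08). PPP1R15A, a phosphatase subunit that restores translation, rose to 1.21 times (adjusted p = 0.00634). DDIT3, which encodes the stress factor CHOP, was not called at 7.54 ± 0.332 and 8.42 ± 0.719 CPM (adjusted p = 0.148), nor was ATF3 at 3.35 ± 0.870 and 3.29 ± 0.140 CPM (adjusted p = 0.894).

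**Figure D5:**
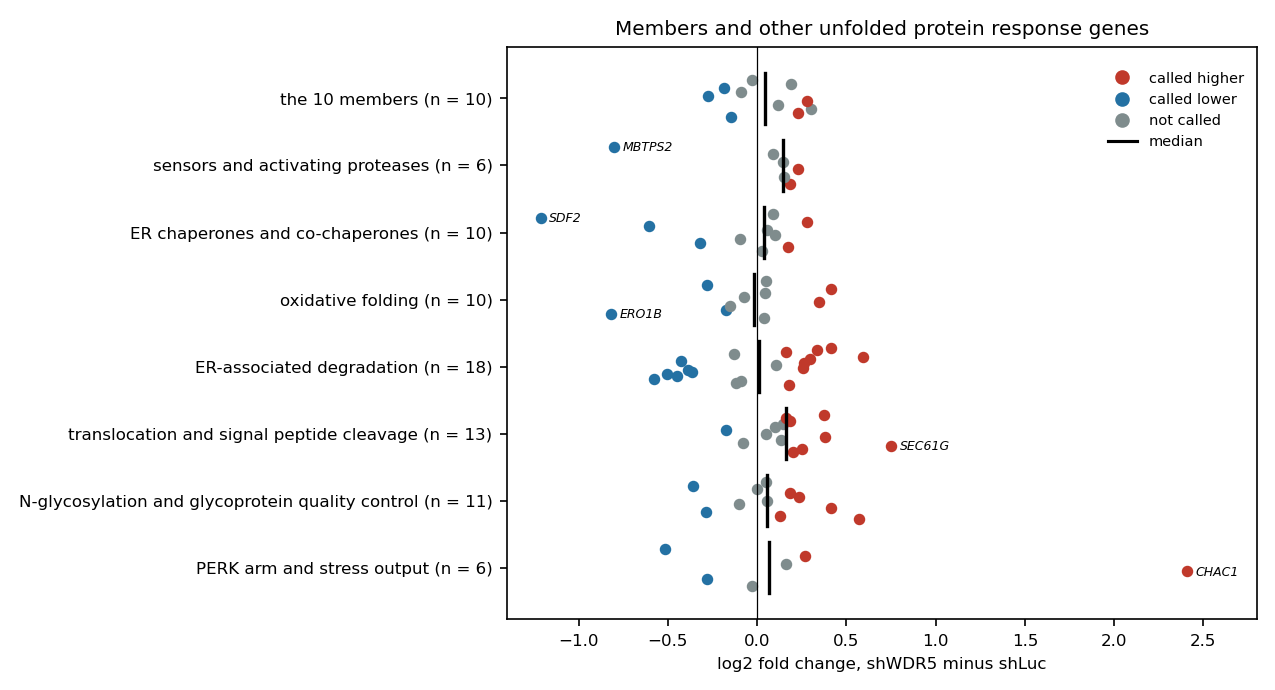
Log2 fold change (x axis, shWDR5 minus shLuc) of the 10 members and of 74 further unfolded protein response genes, a point per gene coloured by call, with a vertical bar for the median of each group. The members lie between -0.27 and 0.30, and many further genes lie outside this range. The labelled ones changed most: CHAC1 at 2.41, SDF2 at -1.21, ERO1B at -0.82, MBTPS2 at -0.80 and SEC61G at 0.75.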

How the data were processed

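Poly-A RNA libraries (TruSeq RNA, 3 shLuc and 3 shWDR5) were sequenced by the authors. Per the labels, the authors aligned reads with TopHat2 2.1.0 to hg19 (GRCh37) and counted them per gene with featureCounts (strand setting not given in the sources used here), and the deposited counts are whole numbers without normalization. The authors' own edgeR 3.2.2 table of fold changes and p-values was not used. Genes passing filterByExpr (minimum count 10) were fitted with edgeR 4.0.16 (TMM scaling, glmQLFit, glmQLFTest) in R 4.3.3, with p-values adjusted over 16117 genes by Benjamini-Hochberg and SE taken as the log2 fold change over the root of F. CPM is scaled by TMM, and TPM uses the deposited exon lengths without TMM. The code was tested on simulated data in which far fewer genes changed than were called here. Scaling under so broad a change was therefore not tested. Depth was 38218108 to 57640167 assigned reads per library. Replicates of a group differed beyond sampling noise. Alternatives were other scalings, no filter, DESeq2 1.42.0, limma-voom (limma 3.58.1), edgeR's likelihood-ratio test, the study's limits (absolute log2 fold change of 0.6, 0.5 RPKM), a replicate block and leaving out each library. Named genes were all members and WDR5, every sensor and PERK branch gene, and from each other list the 2 called genes with the lowest adjusted p in each direction. The members and lists were chosen with earlier results of these data known.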

Additional observations from a re-analysis of the deposited data

How the results depend on the processing

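Directions of all members held in every setting run, except that of XBP1, which was 0.0066 (log2) with upper quartile factors. ATF3 also reversed, to 0.0059 with those factors and 0.15 without shLuc replicate 3, the range without each library running from -0.21 to 0.15. With the study's limits on fold and RPKM the called genes numbered 1264 higher and 1695 lower, the pathway genes 2 and 4, and the members 0 and 0. The members called lower numbered 1 with upper quartile factors and from 1 to 2 without each library, and the calls of HSP90B1, CALR and HERPUD1 were kept in all 14 refits. ATF6 was called in 4 of 14 refits and DNAJB9 in 7. HSPA5 was called lower only with library totals alone (adjusted p = 0.0195), a scaling that put the median of all genes at -0.07. With the replicate block the members called higher numbered 4 (CALR, DNAJB9, HERPUD1 and SDF2L1), with adjusted p-values of 0.00101 for DNAJB9 and 0.0238 for SDF2L1. The numbers were not shown to pair the libraries. Deviations of same-numbered libraries correlated at 0.372, 0.0358 and 0.116, and those of differently numbered ones at -0.312 to 0.21. The libraries numbered 1 correlated most, and they also stood apart on the second principal component. No flag for outlying libraries can be raised with 3 libraries a group. Depth allowed every member to be tested, and protein, splicing and cleavage were not measured.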

Other observations

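Outside the lists, some genes with an ER stress element or ERSE-II in a promoter window had larger changes than any member. So did 50.9% of all genes tested, and the genes named here were chosen after their values were seen. With an ER stress element, SYNPO, which encodes an actin-associated protein, had a log2 fold change of 0.78 (SE 0.13, edgeR adjusted p = 0.000450), EIF2A, a translation initiation factor, of -0.66 (SE 0.06, adjusted p = 1.08e-05), and TRIM5, an antiviral restriction factor, of -0.64 (SE 0.07, adjusted p = 2.91e-05). With ERSE-II, GYS1, the muscle-type glycogen synthase, had a log2 fold change of 0.98 (SE 0.05, edgeR adjusted p = 4.25e-07). SHCBP1, also with ERSE-II, had a log2 fold change of -1.30 (SE 0.06, edgeR adjusted p = 1.22e-07). RAD9A (-0.81), NAV2 (-0.66) and SETD3 (-0.53), which hold ERSE-II as well, were also called lower. Of the 14 tested genes with ERSE-II, 3 were called higher, 6 lower and 5 were not called, beside 26.6% higher and 29.9% lower of all genes tested; no test compared these shares.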
